A study of Mus musculus with 18 samples.

Results

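The genes described here are 37 genes of mitosis and the mitotic spindle, chosen by name as a module, and they are 37 of the 24391 genes listed by symbol in each of the study's tables of normalized counts. All 37 were found in both tables, and all 37 passed the filter on low values there. RNA sequencing was done on ribosome-depleted RNA of E2-10HA, a mouse hybridoma line described as mature T cells. For the knockdown, cells carried the plasmid pLKO.1 with an L3MBTL3 hairpin (shRNA, 3 libraries) or with a scramble hairpin (3 libraries), and all were selected with puromycin. For the rescue, RBPJ-depleted cells received Flag-tagged mouse RBPJ F261A/A284V, Flag-tagged mouse RBPJ WT, or nothing more than the pMY-Bio IRES Blasticidin vector, all under blasticidin, with 4 libraries per group. Only 1 hairpin was analysed, so effects of its sequence on other transcripts cannot be told apart from those on L3mbtl3. RBPJ is the DNA-binding factor of Notch signalling and L3MBTL3 a chromatin protein that partners with it, so the knockdown asks what changes when the partner is targeted and the rescue what depends on RBPJ and on the substituted residues.

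In mitosis the cyclin-dependent kinase CDK1 with B-type cyclins starts chromosome condensation and spindle assembly. Kinetochores built on centromeres attach the chromosomes to microtubules, and the spindle checkpoint holds back the anaphase-promoting complex until every kinetochore is attached. Separase then cuts the cohesin between sister chromatids, and the central spindle guides cytokinesis. The genes of these steps are transcribed together late in the cell cycle, held down in resting cells by the DREAM complex and switched on by B-Myb and FOXM1, and their transcripts are therefore used as a measure of how many cells of a culture are dividing. In a bulk culture, a smaller share of cells in division and fewer of these transcripts per dividing cell cannot be told apart.

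The label of the cells and of the groups was checked first. Of 12 T cell markers, 11 averaged at least 10 normalized counts in every group, and the 5 markers of B cells summed to no more than 3.69. Markers of other cells were not all near 0, since the 6 of stroma and endothelium summed to 248 to 648, with 1 averaging at least 10, and the 7 of myeloid cells in the rescue summed to 235 to 312, with 4 averaging at least 10. The 6 erythroid markers summed to 7.35 to 64.8, with 2 averaging at least 10 in both knockdown groups. The 4 markers of natural killer cells summed to no more than 7.61. The transcript targeted by the hairpin was hardly lower: L3mbtl3 stood at 394, 371 and 369.6 in the libraries labelled L3MBTL3 shRNA, against 467, 447 and 352 in scramble. The scramble library of replicate 3 lay below all 3 libraries labelled L3MBTL3 shRNA and goes against its label, and the difference on the log2 scale was -0.15 (SE 0.107, limma adjusted p = 0.402). Directions are therefore those of the labels. In the rescue, Rbpj averaged 778 ± 125 in F261A/A284V cells, 752 ± 101 in RBPJ WT cells and 281 ± 32.1 in empty vector cells (SD, n = 3 each). By library, Rbpj stood at 729, 685, 922 and 919 in F261A/A284V replicates 1 to 4 and at 644, 627, 802 and 818 in RBPJ WT. The F261A/A284V library was thus the higher in every replicate number. The averages bring the groups closer because they weight the replicate numbers unequally. Reads recovered from the deposited values summed over the listed genes to 4882485 to 6129134 per library in the knockdown and 3553505 to 7921533 in the rescue. These sums stand for depth here, and reads not assigned to a listed gene are unknown. In the rescue, replicates 1 and 2, at 5923799 reads or more, stood apart from replicates 3 and 4, at 4239479 or fewer. In 3 pairs of libraries the difference was smaller than sampling noise, and the means and SDs take each such pair as 1 sample. These were replicates 3 and 4 of F261A/A284V, replicates 1 and 2 of RBPJ WT, and replicates 1 and 2 of the empty vector.

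DREAM and B-Myb are known to act through short DNA motifs near the start sites of such genes, and the start sites are shown for that reason. RefSeq promoter windows of the build GRCm38.p6, from 250 bases before to 50 after a transcription start, were matched by symbol for 32 of the 37 genes. The genes not matched were Aurkb, Ccna2, Kif20a, Tpx2 and Incenp. The cell cycle genes homology region (CHR, letters TTTGAA, or read from the other strand TTCAAA) was found on either strand in 24 of these 32 genes (75.0%), against 20.2% of all 27025 genes in the same table. Within 60 bases before to 50 after the start it was found in 22 of the 32 (68.8%), against 6.36% of all genes. The CCAAT box, bound by NF-Y (ATTGG on the other strand), was found in 24 of the 32 (75.0%), against 41.1% of all genes, and both motifs in 21 of the 32 (65.6%), against 7.97%. A match of 1 motif shared bases with a match of the other in 1 of the 32 genes. A match describes the sequence and is not evidence of binding. The windows of the 5 genes with the largest decreases among those that passed the test in the knockdown follow, 5′ to 3′ on the strand of the gene, with every match to either motif in capitals.
Cdc20 (chr4:118437294-118437593, minus strand): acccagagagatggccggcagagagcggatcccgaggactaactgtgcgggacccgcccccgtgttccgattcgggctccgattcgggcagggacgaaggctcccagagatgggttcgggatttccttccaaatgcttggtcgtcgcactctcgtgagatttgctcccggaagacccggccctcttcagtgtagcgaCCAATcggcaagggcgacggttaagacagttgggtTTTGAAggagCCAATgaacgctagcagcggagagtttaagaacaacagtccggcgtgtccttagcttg
Ect2 (chr3:27153829-27154128, minus strand): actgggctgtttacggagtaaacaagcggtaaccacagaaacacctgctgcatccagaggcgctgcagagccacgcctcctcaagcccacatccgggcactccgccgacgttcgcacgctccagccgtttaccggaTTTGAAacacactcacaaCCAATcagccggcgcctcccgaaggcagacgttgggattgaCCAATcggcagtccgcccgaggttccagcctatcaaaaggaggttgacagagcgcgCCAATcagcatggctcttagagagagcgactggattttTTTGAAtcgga
Kif4 (chrX:100625815-100626114, plus strand): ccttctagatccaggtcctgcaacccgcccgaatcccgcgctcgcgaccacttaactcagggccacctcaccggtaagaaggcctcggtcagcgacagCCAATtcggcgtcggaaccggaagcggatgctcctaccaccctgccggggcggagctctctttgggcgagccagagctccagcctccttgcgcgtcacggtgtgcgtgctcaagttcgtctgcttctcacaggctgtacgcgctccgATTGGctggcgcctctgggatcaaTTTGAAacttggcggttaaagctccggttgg
Kif2c (chr4:117178723-117179022, minus strand): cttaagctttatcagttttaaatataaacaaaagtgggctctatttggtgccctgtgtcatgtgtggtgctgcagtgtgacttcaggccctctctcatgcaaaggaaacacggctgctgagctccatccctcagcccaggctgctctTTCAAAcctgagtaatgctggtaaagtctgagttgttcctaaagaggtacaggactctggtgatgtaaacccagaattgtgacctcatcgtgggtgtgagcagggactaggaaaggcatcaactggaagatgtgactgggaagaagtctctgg
Hmmr (chr11:40733388-40733687, minus strand): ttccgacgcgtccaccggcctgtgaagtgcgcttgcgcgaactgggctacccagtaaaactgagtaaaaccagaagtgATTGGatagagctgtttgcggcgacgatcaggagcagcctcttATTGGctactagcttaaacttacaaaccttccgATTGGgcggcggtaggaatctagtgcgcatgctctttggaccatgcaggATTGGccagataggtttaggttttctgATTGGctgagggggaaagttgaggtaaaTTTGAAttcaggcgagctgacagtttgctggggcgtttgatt

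With the start base counted as 1 and the base before it as -1, and a match placed by its first base, the CHR of Cdc20 lies at -18, between CCAAT boxes at -53 and -8. Ect2 has a CHR at -114 and another at 40. A second RefSeq start of Ect2, whose window is not printed, places these matches at -138 and 16. Kif4 has its CHR at 20 and Hmmr at 9. The Hmmr window holds 5 CCAAT boxes, all read on the other strand. In Kif2c the only match is a CHR at -103 on the other strand, outside the stretch of 60 bases before the start. The median log2 fold change in the knockdown was -0.25 over the 24 genes with a CHR in the window and -0.28 over the 8 without one.

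In the knockdown, the whole module stood lower in the libraries labelled L3MBTL3 shRNA than in scramble. The fitted log2 fold change was below 0 for 37 of 37 genes (51.3% of the 11586 genes tested), with a median of -0.25, against -0.01 over all genes tested. It ranged from -0.49 for Cdc20, which activates the anaphase-promoting complex, to -0.09 for Mki67, whose protein coats the surface of mitotic chromosomes. All 37 were lower within each of the 3 replicate numbers (28.8% of all genes tested), and for 34 of 37 all 3 libraries labelled L3MBTL3 shRNA lay below all 3 scramble libraries (17.1% of all genes tested). The other 3 genes, whose groups overlapped, were Cenpf, Anln and Mki67. The 37 transcripts together made up 0.655% to 0.699% of a library labelled L3MBTL3 shRNA, against 0.740% to 0.819% of a scramble library. Among genes at least as highly expressed as the lowest of the 37, 23.7% of 5704 had every library lower.

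**Figure D1:**
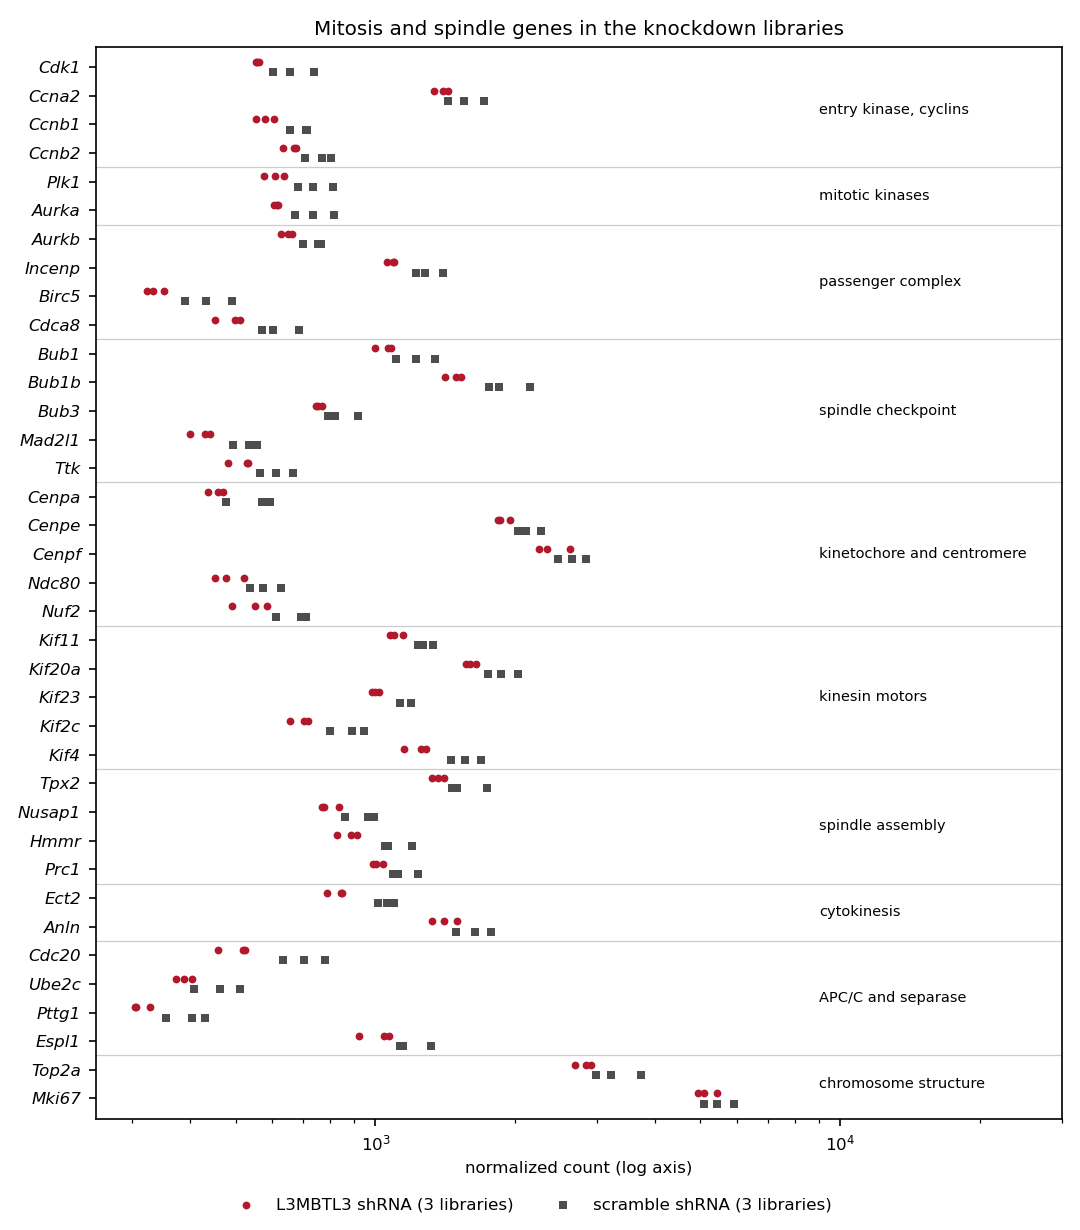
Normalized counts (log axis) of the 37 mitosis and spindle genes in each knockdown library, grouped by role from top to bottom, with libraries labelled L3MBTL3 shRNA as red circles above scramble libraries as dark squares. In 34 of 37 genes the red circles all lie left of the squares, and they overlap for Cenpf, Anln and Mki67.

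By limma-trend on log2(normalized count + 1), with Benjamini-Hochberg adjustment over all genes tested and a threshold of 0.05, 7 of the 37 genes fell (1.11% of all genes tested fell) and 0 rose (2.21% of all genes tested rose). They were Cdc20, Ect2, Kif4, Kif2c, Hmmr, Mad2l1 and Kif23. On the whole reads recovered from the values, edgeR and DESeq2 each called 9 of 37 lower (1.31% and 1.72% of all genes tested). At an unadjusted p under 0.05 in limma, 35 of 37 were lower (10.8% of all genes tested). With the replicate number as a block, which treats same-numbered libraries as pairs, 34 of 37 fell (8.71% of all genes tested). The others were Bub3, Cenpf and Mki67. Such pairing is not settled, since deviations from group means correlated at 0.24 to 0.54 between same-numbered libraries and at up to 0.33 between others. Replicate 3 of either group correlated at -0.47 to -0.22 with replicates 1 and 2 of the other group. Without that block, leaving out any 1 library labelled L3MBTL3 shRNA, or scramble replicate 2, left 0 of 37 genes called. Of all genes tested, 0.00% to 0.0261% fell in these 4 fits, so the loss of calls was not particular to the module. The median log2 fold change of the 37 genes there was -0.22 to -0.27. At an unadjusted p under 0.05 in limma, 23 to 33 of 37 were lower (5.54% to 10.1% of all genes tested). Without scramble replicate 3, the library that goes against its label, 15 of 37 fell (3.34% of all genes tested), and 34 of 37 had every library lower (21.9% of all genes tested). Without replicate 3 of both groups, 27 of 37 fell (7.50% of all genes tested). Scramble replicate 3 also had the fewest reads of the 6 libraries, 4882485, and the highest summed level of the module, and the part of depth in this was not tested. The 7 myeloid markers summed to 254 to 322 normalized counts in the libraries labelled L3MBTL3 shRNA and 377 to 409 in scramble, with 2 of 7 averaging at least 10 in either group and Cd14 at 0 in all 6 libraries. Their part in the result was not tested.

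**Figure D2:**
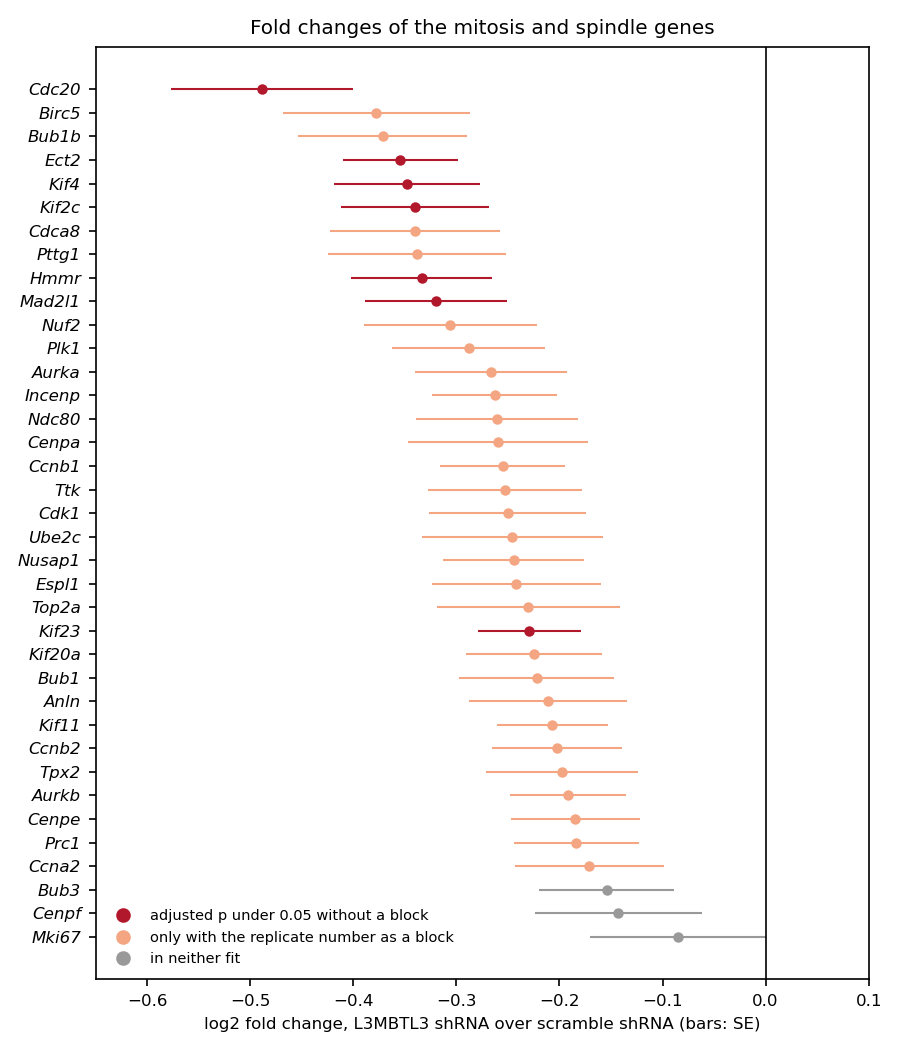
Log2 fold change of each of the 37 genes, L3MBTL3 shRNA over scramble shRNA, with SE as bars; red points passed the test without a block (7), light points passed only with the replicate number as a block and grey points passed in neither fit (3). All points lie below 0, from -0.49 for Cdc20 to -0.09 for Mki67.

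Among the kinase and cyclins that start mitosis, Cdk1, the master kinase, stood at 555, 557 and 561 normalized counts in the libraries labelled L3MBTL3 shRNA, against 603, 655 and 739 in scramble. The libraries labelled L3MBTL3 shRNA lay close together and below all of scramble, where the spread was wide. The averages were 558 ± 3.00 with the hairpin and 666 ± 68.6 with scramble (SD, n = 3 each), at a log2 fold of -0.25 (SE 0.0762, limma adjusted p = 0.0963). The cyclin genes Ccna2, Ccnb1 and Ccnb2 had log2 fold changes of -0.17, -0.26 and -0.20. With the block, all 4 genes of this role fell (8.71% of all genes tested), and without it 0 of 4 did (1.11% of all genes tested). The same shares apply to the counts by role that follow.

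Of the kinases that build the spindle poles, Plk1, which drives centrosome maturation and mitotic entry, had 575, 609 and 634 normalized counts in the libraries labelled L3MBTL3 shRNA, against 682, 733 and 810.0 in scramble. The groups did not overlap, and the log2 fold change was -0.29 (SE 0.0743, limma adjusted p = 0.0680). Aurka, the spindle pole kinase, had 613 ± 5.94 normalized counts with the hairpin against 740.0 ± 72.6 with scramble (log2 fold change -0.27, adjusted p = 0.0784). In the chromosomal passenger complex, which corrects wrong attachments, the kinase gene Aurkb stood at 627, 661 and 649 in the libraries labelled L3MBTL3 shRNA, against 700.0, 763 and 751 in scramble. Birc5, the survivin subunit, stood at 323, 332 and 351 in the libraries labelled L3MBTL3 shRNA, against 390.2, 432 and 490.4 in scramble. Both genes were lower in every library. Birc5 had the second largest log2 fold change of the module, -0.38 (SE 0.0907, limma adjusted p = 0.0605), and Aurkb had -0.19 (SE 0.0560, adjusted p = 0.0881). Cdca8 (borealin) and the scaffold gene Incenp had log2 fold changes of -0.34 and -0.26. Of these 6 kinase and passenger genes, 0 passed without the block and all 6 with it.

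Of the 5 spindle checkpoint genes, 1 passed the test. Mad2l1, whose product is part of the inhibitor of the anaphase-promoting complex, had 399, 441 and 430.0 normalized counts in the libraries labelled L3MBTL3 shRNA, against 495, 535 and 556 in scramble. The groups did not overlap, and Mad2l1 fell by 0.32 on the log2 scale (SE 0.0689, limma adjusted p = 0.0492). Bub1, a kinetochore kinase of the checkpoint, had 999, 1063 and 1078 in the libraries labelled L3MBTL3 shRNA, against 1108, 1223 and 1341 in scramble (log2 fold change -0.22, adjusted p = 0.119). Bub1b had the largest log2 fold change of the 5, -0.37, with means of 1478 ± 62.3 in hairpin libraries and 1918 ± 210.4 in scramble libraries (adjusted p = 0.0504). Ttk, the checkpoint kinase MPS1, had -0.25 and Bub3 -0.15. With the block, 4 of the 5 fell, and Bub3 had an adjusted p of 0.0688 there (0.0688 to 0.452 over its alternatives).

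Cenpa, the histone H3 variant that marks centromeres, had 435, 470.0 and 458 in the libraries labelled L3MBTL3 shRNA, against 476, 570.1 and 592 in scramble. The libraries lay close together in the first group, and scramble replicate 1 lay near them (log2 fold change -0.26, SE 0.0873, limma adjusted p = 0.118). Cenpf, a large outer kinetochore protein, stood at 2246, 2334 and 2622 in the libraries labelled L3MBTL3 shRNA, against 2469.5, 2642 and 2837 in scramble. Its groups overlapped through replicate 3 of the hairpin, with a fitted log2 difference of -0.14 (SE 0.0807, adjusted p = 0.298; with the block 0.0750, and 0.000599 to 0.651 over its alternatives). Ndc80 and Nuf2, 2 subunits of the microtubule-binding NDC80 complex, had log2 fold changes of -0.26 and -0.31, and the kinesin gene Cenpe had -0.18. Without the block 0 of these 5 passed, and with it 4 of 5.

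Of the 5 kinesin motors grouped outside the kinetochore, 3 fell. Kif4, which compacts chromosomes and organises the central spindle, stood at 1152, 1251 and 1286 in the libraries labelled L3MBTL3 shRNA, against 1453, 1562 and 1685 in scramble. Kif2c, which removes tubulin from microtubule ends at kinetochores, stood at 656, 717 and 704 in the libraries labelled L3MBTL3 shRNA, against 800.1, 889 and 945 in scramble. Kif23, the motor of centralspindlin, stood at 983, 1017 and 1000.2 in the libraries labelled L3MBTL3 shRNA, against 1128, 1195 and 1195 in scramble. For each of the 3 motors, every library labelled L3MBTL3 shRNA lay below every scramble library, and the gap was wider than the spread of the hairpin libraries. Kif4 fell by 0.35 on the log2 scale (SE 0.0710, limma adjusted p = 0.0479), Kif2c by 0.34 (SE 0.0721, adjusted p = 0.0491) and Kif23 by 0.23 (SE 0.050, adjusted p = 0.0493). Kif11, the motor that pushes spindle poles apart, had 1076, 1097 and 1146 in the libraries labelled L3MBTL3 shRNA, against 1268, 1332 and 1233 in scramble (log2 fold change -0.21, SE 0.0540, adjusted p = 0.0694). Kif20a, a motor of cytokinesis, had a log2 fold change of -0.22, and all 5 motors fell with the block.

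Of the 4 genes for spindle assembly and microtubule bundling, Hmmr passed. Hmmr, which anchors spindle poles, had 828, 887 and 913 normalized counts in the libraries labelled L3MBTL3 shRNA, against 1049, 1066 and 1199.7 in scramble, and it fell by 0.33 on the log2 scale (SE 0.0684, limma adjusted p = 0.0479). Tpx2, which activates Aurora A on microtubules, had 1324, 1361 and 1403 in the libraries labelled L3MBTL3 shRNA, against 1461, 1500.5 and 1739 in scramble (log2 fold change -0.20, SE 0.0734, adjusted p = 0.145). The groups overlapped for neither gene, and the gap was narrower for Tpx2. Nusap1 and Prc1, both of which bundle microtubules, had log2 fold changes of -0.24 and -0.18. Of the 2 cytokinesis genes, Ect2, which switches on RhoA at the division plane, stood at 786, 847 and 842 in the libraries labelled L3MBTL3 shRNA, against 1011, 1059.8 and 1094 in scramble. The gap between its groups was wider than the spread within either, and Ect2 fell by 0.35 on the log2 scale (SE 0.0561, adjusted p = 0.0338), the lowest adjusted p of the module. Anln, a scaffold of the contractile ring, had groups that overlapped and a fitted log2 difference of -0.21 (adjusted p = 0.137). All 6 genes fell with the block.

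At the exit from mitosis, Cdc20 had 458, 524 and 519 normalized counts in the libraries labelled L3MBTL3 shRNA, against 632, 702 and 778 in scramble. The gap between the groups was wider than the spread of the libraries labelled L3MBTL3 shRNA. The averages were 501 ± 36.5 with the hairpin and 704 ± 73.2 with scramble (SD, n = 3 each), and Cdc20 fell by 28.7%, at a log2 fold of -0.49 (SE 0.0884, limma adjusted p = 0.0373). Ube2c, the enzyme that hands ubiquitin to the anaphase-promoting complex, had a log2 fold change of -0.25, Pttg1 (securin, which restrains separase) -0.34 and Espl1 (separase) -0.24. None of these 3 passed without the block, with adjusted p between 0.0668 and 0.135, and all 3 fell with it. Top2a, the topoisomerase that untangles sister chromatids, stood at 2691, 2832 and 2905 in the libraries labelled L3MBTL3 shRNA, against 2988, 3208 and 3729 in scramble (log2 fold change -0.23, SE 0.0887, adjusted p = 0.156). Mki67 stood at 4955, 5080.0 and 5427 in the libraries labelled L3MBTL3 shRNA, against 5080.2, 5437 and 5904 in scramble. Its groups overlapped, and Mki67 had the smallest log2 fold change, -0.09 (SE 0.0854, adjusted p = 0.539; with the block 0.354, and 0.157 to 0.828 over its alternatives).

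Other cell cycle genes were counted in the same way. Of 121 tested from a longer list of mitotic genes outside the module, 19 fell and 0 rose, 59 fell with the block, and the median log2 fold change was -0.19. Of 38 genes of DNA replication and the entry into S phase, 5 fell and 0 rose, 17 fell with the block, and the median was also -0.19. Of all genes tested, 1.11% fell and 2.21% rose without the block, and 8.71% fell with it. The largest decreases that passed were those of Iqgap3, a scaffold of the cell cortex (726 ± 117 with the hairpin against 1179 ± 209 with scramble, log2 fold change -0.70, limma adjusted p = 0.0488), Lin52, a subunit of DREAM (196 ± 4.99 against 290.3 ± 12.4, -0.56, adjusted p = 0.0314), and the kinetochore gene Nsl1 (398 ± 22.4 against 556 ± 29.1, -0.48, adjusted p = 0.0314). Among the regulators of mitotic transcription, Foxm1 had 523, 615 and 593 in the libraries labelled L3MBTL3 shRNA, against 697, 776 and 745 in scramble, and fell by 0.36 on the log2 scale (SE 0.0751, limma adjusted p = 0.0488). Lin54, the DREAM subunit that binds the CHR, averaged 840.2 ± 28.5 with the hairpin against 1046 ± 103 with scramble (log2 fold change -0.31, adjusted p = 0.0591; with the block 0.00249). Mybl2, which encodes B-Myb, averaged 535 ± 18.2 with the hairpin against 519.8 ± 92.3 with scramble (log2 fold change 0.06, adjusted p = 0.778), with overlapping groups. Of the replication genes, the transcription factor gene E2f2 (489 ± 41.1 with the hairpin against 649 ± 20.7 with scramble, log2 fold change -0.41, adjusted p = 0.0348), Cdc6, which loads the replicative helicase (374 ± 26.3 against 489 ± 23.9, -0.39, adjusted p = 0.0413), and Rrm2, a subunit of ribonucleotide reductase (-0.34, adjusted p = 0.0491), had the largest decreases that passed.

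Seen by library rather than by gene, the module separated the knockdown groups. For each gene the log2 value of a library was set against that gene's mean over the 6 libraries, and the median of these deviations over the 37 genes was -0.18, -0.11 and -0.08 in the libraries labelled L3MBTL3 shRNA, against 0.02, 0.13 and 0.24 in scramble. The 3 libraries of the hairpin were all below the 3 scramble libraries. In replicates 1 and 2 of the hairpin 0 of 37 genes stood above their own mean and in replicate 3 it was 2 of 37, against 25 of 37 in scramble replicate 1 and 37 of 37 in scramble replicates 2 and 3. The share of all genes above their own mean was not counted. Over all genes the median deviation was -0.0043 to 0.0031 in these 6 libraries. In the rescue table the same measure did not separate the groups but the replicate numbers. It was -0.0020, -0.18, 0.07 and 0.02 in F261A/A284V replicates 1 to 4, -0.10, -0.16, 0.08 and 0.12 in RBPJ WT replicates, and -0.13, -0.11, 0.15 and 0.21 in empty vector replicates. F261A/A284V replicate 1 stood above all other libraries of replicates 1 and 2.

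**Figure D3:**
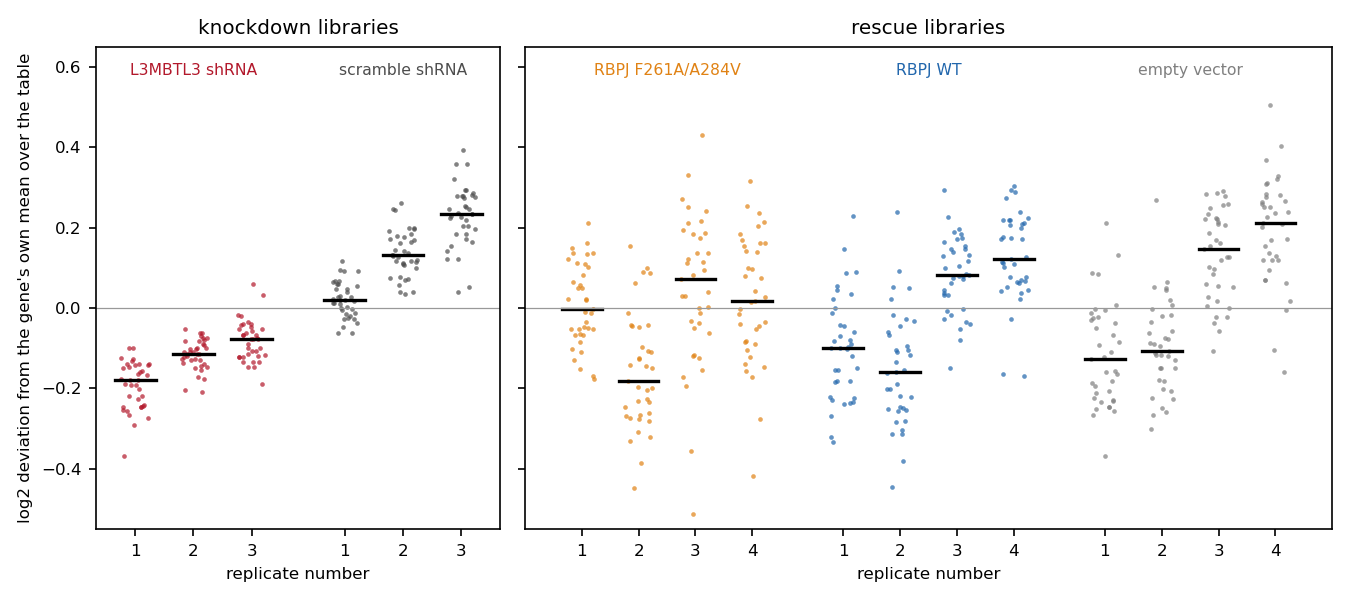
Log2 deviation of each of the 37 genes from its own mean over the table (points) in every library, with the median as a black bar; knockdown libraries are on the left and rescue libraries on the right, and the numbers on the x axis are replicate numbers. In the knockdown the medians are -0.18 to -0.08 with the hairpin and 0.02 to 0.24 with scramble, and in the rescue they follow the replicate numbers.

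In the rescue, 0 of the 37 genes passed the test in any of the 3 comparisons. Of all 11691 genes tested, 0.248% passed between RBPJ WT and the empty vector, 0.0171% between F261A/A284V and the empty vector and 0.316% between F261A/A284V and RBPJ WT. At an unadjusted p under 0.05 by limma the count was also 0 of 37 in each (3.40%, 2.05% and 4.62% of all genes tested), and edgeR (0.240%, 0.0171% and 0.248% of all genes tested, in the same order) and DESeq2 (0.513%, 0.0599% and 0.667%) called 0 of 37 as well. The log2 fold change of RBPJ WT over the empty vector had a median of -0.03 and ranged from -0.13 (Cenpa) to 0.04 (Ndc80), with 29 of 37 genes below 0 (53.5% of all genes tested). That of F261A/A284V over the empty vector had a median of -0.05, from -0.23 (Espl1) to 0.02 (Anln), with 31 of 37 below 0 (46.2%). That of F261A/A284V over RBPJ WT had a median of -0.0049, from -0.25 (Espl1) to 0.14 (Cenpa), with 21 of 37 below 0 (45.0%). The first and second share the empty vector libraries. The SEs of the 37 genes ranged from 0.0638 to 0.255, and these p-values do not show that the groups are alike. In each comparison the libraries of the groups overlapped for all 37 genes. Of all genes tested, 1.87% had every library lower and 1.46% every library higher for RBPJ WT over the empty vector, 1.04% and 0.881% for F261A/A284V over the empty vector, and 1.75% and 1.94% for F261A/A284V over RBPJ WT.

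Cenpa stood at 475, 425, 627 and 560.1 normalized counts in F261A/A284V replicates 1 to 4, at 413, 409, 527 and 534 in RBPJ WT and at 431, 459, 580.5 and 593 in the empty vector. In every group its replicates 3 and 4 were higher than replicates 1 and 2, and the groups overlapped. The log2 fold changes of Cenpa were -0.13 for RBPJ WT over the empty vector and 0.14 for F261A/A284V over RBPJ WT (SE 0.150 each). Ube2c stood at 413, 336, 619 and 572 in F261A/A284V, at 367, 337, 563 and 543 in RBPJ WT and at 355, 372, 546 and 653 in the empty vector, the widest gap between replicate numbers in the module. Its log2 fold changes were -0.08, 0.01 and 0.09 in the 3 comparisons in the order above (SE 0.255). Means of merged samples take 2 of 3 samples from replicates 1 and 2 in F261A/A284V but 1 of 3 in RBPJ WT and in the empty vector, so they can differ in sign from these fold changes.

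Kif11 stood at 1437, 1221, 1263 and 1235 in F261A/A284V, at 1308, 1255, 1348 and 1368 in RBPJ WT and at 1263, 1314, 1274 and 1419.8 in the empty vector, with log2 fold changes between -0.04 and 0.0026. Bub1 stood at 1157, 1032, 955 and 989 in F261A/A284V, at 1079.7, 1039.8, 1043 and 1115 in RBPJ WT and at 1060.1, 1050.5, 1102 and 1155 in the empty vector. For both genes the order of the groups differed between replicates 1 and 2 and replicates 3 and 4. Cdk1 stood at 559, 493, 722 and 729 in F261A/A284V, at 524, 469, 655 and 746 in RBPJ WT and at 513, 510.3, 731 and 808 in the empty vector. Top2a stood at 2842, 2360.1, 3372 and 3347 in F261A/A284V, at 2499, 2419.9, 3319.5 and 3614 in RBPJ WT and at 2453, 2518, 3419.8 and 3699 in the empty vector. Tpx2 stood at 1350.0, 1177, 1535 and 1564 in F261A/A284V, at 1259, 1201, 1476 and 1577 in RBPJ WT and at 1228, 1260.0, 1589 and 1674 in the empty vector. For Cdk1, Top2a and Tpx2, replicates 3 and 4 were higher than replicates 1 and 2 in all 3 groups, and the log2 fold changes between groups were between -0.09 and 0.07.

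Plk1 stood at 652, 599, 639 and 634 in F261A/A284V, at 610.2, 587, 724 and 673 in RBPJ WT and at 616, 662, 713 and 752 in the empty vector. Replicates 3 and 4 exceeded replicates 1 and 2 in RBPJ WT and the empty vector but not in F261A/A284V, and the log2 fold change of F261A/A284V over the empty vector was -0.12 (SE 0.0806). Aurkb stood at 729.7, 651, 808 and 739 in F261A/A284V, at 706, 656, 810.1 and 807 in RBPJ WT and at 671, 689, 872 and 874 in the empty vector. Cdc20 stood at 438, 419, 573 and 544 in F261A/A284V, at 453, 449, 521 and 520.1 in RBPJ WT and at 419, 462, 589 and 570.1 in the empty vector. Cdca8 stood at 504, 472, 648 and 634 in F261A/A284V, at 502, 479.7, 624 and 619.9 in RBPJ WT and at 502, 527, 697 and 689 in the empty vector. All 3 were higher in replicates 3 and 4 of every group. The log2 fold change of RBPJ WT over the empty vector was -0.05 for Aurkb, -0.06 for Cdc20 and -0.11 for Cdca8, each smaller than its SE. These SEs include the difference between replicates 1 and 2 and replicates 3 and 4. Within replicates 3 and 4 the values were -0.11 (SE 0.0633), -0.15 (SE 0.0685) and -0.16 (SE 0.0639), with limma adjusted p of 0.346 or more. Within replicates 1 and 2 they were 0.0011, 0.04 and -0.07. Anln stood at 1438, 1275, 1471 and 1404 in F261A/A284V, at 1323, 1301, 1470.0 and 1517 in RBPJ WT and at 1272, 1305, 1474 and 1450.4 in the empty vector, with log2 fold changes of no more than 0.03 in size.

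Kif4, Kif2c, Kif23 and Mad2l1, which fell in the knockdown, had log2 fold changes from -0.08 to 0.02 in the rescue. Kif4 stood at 1463, 1298, 1438 and 1398 in F261A/A284V, at 1356, 1301, 1391 and 1477 in RBPJ WT and at 1335, 1339, 1459 and 1557 in the empty vector. Kif2c stood at 756, 759, 801 and 766 in F261A/A284V, at 733, 749, 805 and 824 in RBPJ WT and at 778, 745, 853 and 859 in the empty vector. The groups overlapped for both motors. Kif23 stood at 1117, 1019, 1127 and 1185 in F261A/A284V, at 1057, 978, 1252 and 1175 in RBPJ WT and at 1033, 1065.5, 1207.5 and 1327 in the empty vector. Mad2l1 stood at 463, 411, 443 and 465 in F261A/A284V, at 425, 408, 466 and 513 in RBPJ WT and at 446, 420, 509 and 514 in the empty vector. Within replicates 3 and 4, Mad2l1 was lower in both F261A/A284V libraries than in either empty vector library, and in replicates 1 and 2 the groups overlapped. Mki67 stood at 5579, 4676, 5975 and 5874 in F261A/A284V, at 4936, 4621, 6240.3 and 6393 in RBPJ WT and at 4632, 4854, 5995 and 6682 in the empty vector. Its replicates 3 and 4 were higher than replicates 1 and 2 in every group, and its log2 fold changes lay between 0.0022 and 0.0059.

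The comparisons were also made within replicates 1 and 2 and within replicates 3 and 4. For F261A/A284V over the empty vector the median log2 fold change of the 37 genes was 0.04 within replicates 1 and 2, with 7 of 37 below 0 (46.1% of all genes tested), and -0.12 within replicates 3 and 4, with 36 of 37 below 0 (49.3%). For F261A/A284V over RBPJ WT it was 0.05 (4 of 37 below 0, against 43.5%) and -0.07 (29 of 37 below 0, against 45.9%). For RBPJ WT over the empty vector it was -0.01 (23 of 37 below 0, against 50.6%) and -0.06 (31 of 37 below 0, against 54.4%). Within replicates 3 and 4, 17 of 37 genes had an unadjusted p under 0.05 in limma for F261A/A284V over the empty vector, all lower. Of all genes tested, 12.8% had one there and 6.61% were lower with one. After adjustment 1 of 37 passed (1.17% of all genes tested). Within replicates 1 and 2, 0 of 37 had an unadjusted p under 0.05 (10.2% of all genes tested). These p-values count libraries that differed by less than sampling noise separately. Such pairs were F261A/A284V replicates 3 and 4 and empty vector replicates 1 and 2. The test of the difference itself, an interaction of group and replicate side in limma over all genes, called 0 of 37 genes in any comparison (0.128% of all genes tested for F261A/A284V over the empty vector, 0.573% for F261A/A284V over RBPJ WT and 0.0171% for RBPJ WT over the empty vector). At an unadjusted p under 0.05 it held 10, 7 and 1 of 37 in that order (10.2%, 13.0% and 3.16% of all genes tested), and 0, 1 and 0 when near-identical libraries were averaged (2.17%, 3.64% and 0.573%). The median difference between the sides for F261A/A284V over the empty vector was 0.16, against 0.0082 over all genes tested. It was above 0 for 36 of 37 genes, which share their libraries and are not independent. The share of all genes tested above 0 there was not counted. F261A/A284V replicate 1, which stood high for the whole module, enters the value of replicates 1 and 2, and its part in the difference was not tested.

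**Figure D4:**
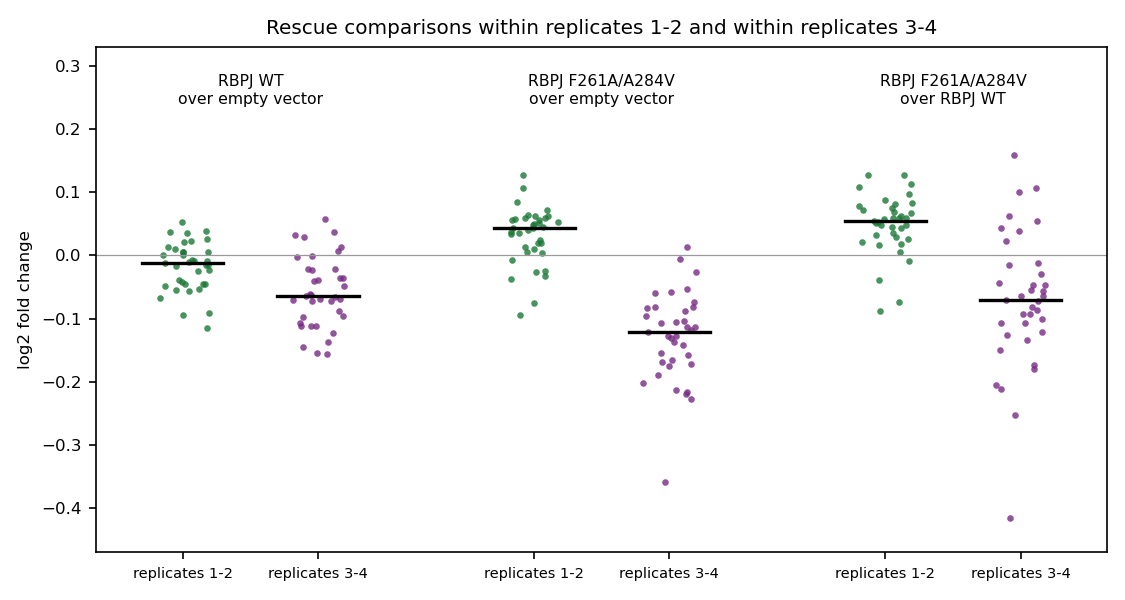
Log2 fold change of each of the 37 genes (points) and their median (bar) in the 3 rescue comparisons, fitted within replicates 1 and 2 (green) and within replicates 3 and 4 (purple). For F261A/A284V over the empty vector the median is 0.04 in replicates 1 and 2 and -0.12 in replicates 3 and 4.

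Espl1, the gene of separase, was the member for which the mutant stood apart most. It stood at 1149.8, 1163, 733 and 782 normalized counts in F261A/A284V, at 1224, 1233, 1099 and 929 in RBPJ WT and at 1210.3, 1260.0, 971 and 972 in the empty vector. Within replicates 1 and 2 and within replicates 3 and 4, both F261A/A284V libraries lay below all 4 libraries of the other groups, and across all replicates the groups overlapped. How many of all genes tested had the order seen for Espl1 was not counted. The log2 fold change of F261A/A284V over RBPJ WT was -0.25 (SE 0.166, limma adjusted p = 1.00), and with the replicate number as a block it passed at an adjusted p of 0.0175 (4.74% of all genes tested passed there), and likewise with replicate side as a term (5.12%). Within replicates 3 and 4 it was -0.42 (adjusted p = 0.00092, with 7.06% of all genes tested called), and within replicates 1 and 2 -0.09 (adjusted p = 0.642). F261A/A284V over the empty vector gave -0.36 within replicates 3 and 4 (adjusted p = 0.0115, with 1.17% of all genes tested called) and -0.09 within replicates 1 and 2 (adjusted p = 0.590). These p-values count F261A/A284V replicates 3 and 4 separately although they differed by less than sampling noise. With such pairs averaged and the replicate side as a term, the adjusted p for F261A/A284V over RBPJ WT was 0.113 (1.96% of all genes tested passed), and the range over all alternatives was 0.00092 to 1.00. The interaction gave a difference of 0.33 between the sides (SE 0.0953, adjusted p = 0.127).

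Ndc80 followed in the same comparison. Ndc80 stood at 572, 517, 480.4 and 431 in F261A/A284V, at 554, 529.7, 521 and 564 in RBPJ WT and at 524, 520.5, 513 and 547 in the empty vector. Its F261A/A284V libraries of replicates 3 and 4 were the lowest of the 12, and of the mutant's other libraries replicate 1 was the highest of the 12. The log2 fold change of F261A/A284V over RBPJ WT was -0.12 (SE 0.0787), and within replicates 3 and 4 it was -0.25 (limma adjusted p = 0.0522). Nuf2, its partner in the complex, stood at 618, 518, 591 and 581 in F261A/A284V, at 565, 550.0, 657 and 694 in RBPJ WT and at 553, 545, 604 and 718 in the empty vector, with a log2 fold change of -0.09 for F261A/A284V over RBPJ WT. Ect2 stood at 879, 821, 687 and 722 in F261A/A284V, at 816, 815, 708 and 805 in RBPJ WT and at 834, 809.7, 754 and 795 in the empty vector. It was higher in replicates 1 and 2 than in replicates 3 and 4 in every group, while Cdc20 and Cdk1 were lower there. Hmmr stood at 982, 882, 833 and 816 in F261A/A284V, at 937, 892, 929.9 and 938 in RBPJ WT and at 885, 897, 912 and 1022 in the empty vector, and of the 37 genes it had the lowest p of the interaction for F261A/A284V over the empty vector (difference 0.29, SE 0.0917, limma adjusted p = 0.288).

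The difference between replicates 1 and 2 and replicates 3 and 4 is given as a description, since the labels do not say what the numbers stand for. The mean log2 value of replicates 1 and 2 minus that of replicates 3 and 4 had a median of -0.21 over the 37 genes, against 0.02 over all genes tested. In 18 of 37 genes all 6 libraries of replicates 1 and 2 lay below all 6 of replicates 3 and 4 (26.2% of all genes tested), in 4 of 37 they lay above (21.3% of all genes tested) and in 15 the libraries overlapped. The largest differences were those of Ube2c, -0.68 (means of 364 in replicates 1 and 2 against 583 in replicates 3 and 4), Cdk1, -0.52 (511 against 732), Pttg1, -0.49 (295 against 415), and Ccnb2, -0.49 (596 against 837). Bub3 had -0.49 and Top2a -0.46. Genes of the same complex or step went opposite ways. Pttg1, the inhibitor of separase, was lower in replicates 1 and 2, and Espl1, separase itself, was higher by 0.41 on the log2 scale (1207 against 914). Of the checkpoint genes, Ttk was higher by 0.25 (632 against 535), while Bub3 and Bub1b were lower and Bub1, with a difference of 0.02, had libraries that overlapped. The others that were higher in every library of replicates 1 and 2 were Ect2 and Cenpe. The 38 replication genes had a median difference of 0.22 and the other mitotic genes 0.0026, against -0.21 over the 37 genes. The replication genes thus differed from the module in sign, and the median of the other mitotic genes lay near 0.

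**Figure D5:**
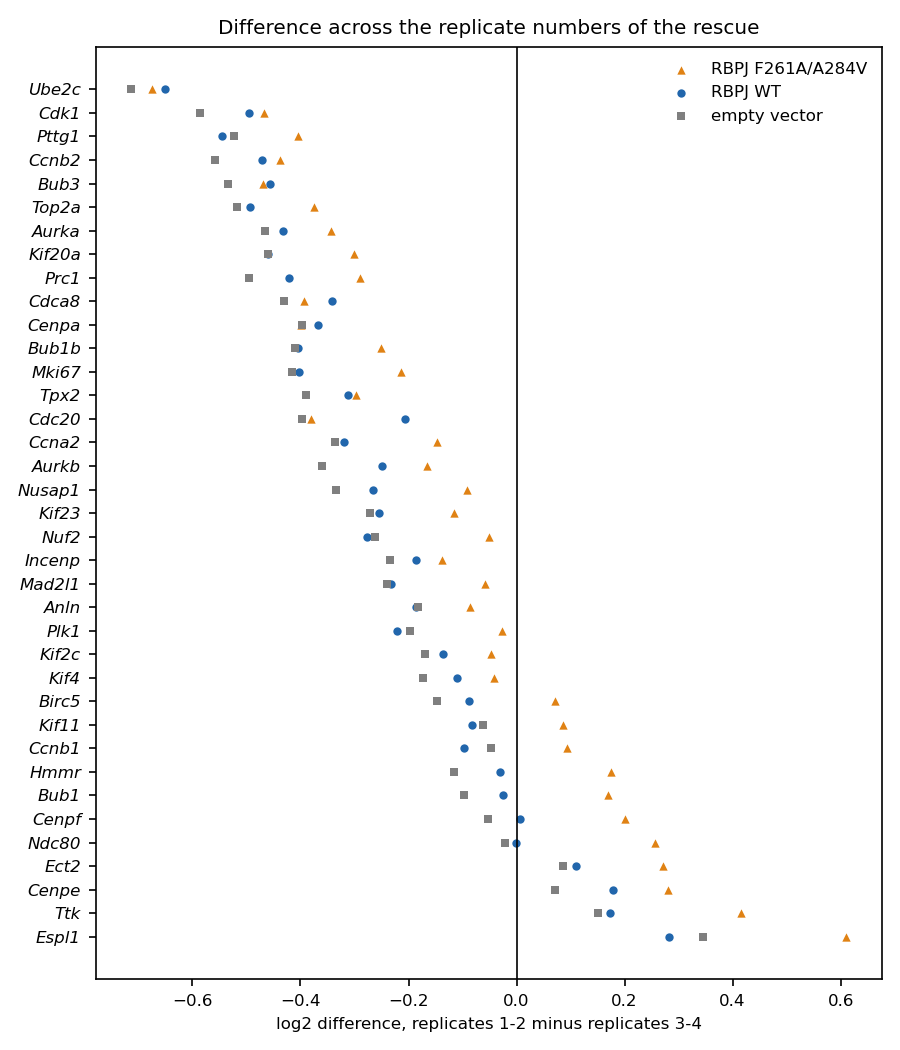
Difference of mean log2 value between replicates 1 and 2 and replicates 3 and 4 for each of the 37 genes, with F261A/A284V as orange triangles, RBPJ WT as blue circles and the empty vector as grey squares. Ube2c lies lowest and Espl1 highest, and in 32 of 37 genes the F261A/A284V triangle lies to the right of the other groups. The share of all genes tested with this order was not counted.

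The difference was below 0 in all 3 groups for 26 of 37 genes and above 0 in all 3 for 4. The matching shares of all genes tested were not counted. The medians of the difference were -0.12 in F261A/A284V, -0.25 in RBPJ WT and -0.27 in the empty vector, against 0.01, 0.02 and 0.02 over all genes tested. Depth moved with it, since replicates 1 and 2 had 5923799 to 7921533 reads and replicates 3 and 4 had 3553505 to 4239479. The summed level of the 12 T cell markers ranged from 6939 to 10382 normalized counts over the 12 libraries. The difference was related to exon length across genes, with a Spearman rho of 0.317 over the 37 genes and 0.237 over 11225 genes tested, where genes share their libraries and are not independent. For the knockdown fold change the same rho was 0.375 over the 37 genes and 0.129 over 11124 genes. The part of depth and length in either pattern was not tested.

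Levels were compared between genes per kilobase of exon, from the annotation of GRCm38. In scramble cells the module ranged from 63.0 ± 3.67 normalized counts per kilobase for Mad2l1 to 544 ± 41.0 for Mki67 (SD, n = 3), with Ccnb2 at 495 ± 32.1, Bub1b at 449 ± 49.2 and Kif20a at 433 ± 32.7 next to the top. Bub1b differed from Ccnb2 and Kif20a, its neighbours in this order, by less than its SD. Ndc80 at 89.1 ± 6.80 and Cenpa at 93.2 ± 10.5 were the next lowest after Mad2l1. Before division by length, Mad2l1 (8390 bases) averaged 528 in scramble, above Ube2c at 461, Birc5 at 438 and Pttg1 at 395. The median of the 37 genes lay at the 81.4 percentile of the 11124 tested genes with a length. In the libraries labelled L3MBTL3 shRNA it lay at the 73.7 percentile, and Mki67 at 512 ± 24.3 and Mad2l1 at 50.4 ± 2.58 were again the highest and the lowest.

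The genes lie on 16 chromosomes, and some share reads with other genes. Exons of 8 of the 37 overlap those of another listed gene on the opposite strand by at least 50 bases, and since no source used here states how counting treated strand, their reads cannot be told apart. Of the 7 genes that fell, this concerns Cdc20, which overlaps Elovl1, a fatty acid elongase gene (441 normalized counts with the hairpin against 504 with scramble, log2 fold change -0.19), and Kif4, which overlaps Pdzd11 (375 against 387, log2 fold change -0.05). Elovl1 and Pdzd11, looked up for their position, did not pass the test. The others are Ccna2, Kif20a, Ube2c, Nusap1, Prc1 and Cdca8. Ccnb1, Mad2l1 and Mki67 have copies in the genome that are at least 95% identical over 200 bases or more, so part of their reads may have been lost or shared.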

How the data were processed

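RNA was measured in 18 libraries, and the authors deposited 1 table of normalized counts per experiment, a signal in which gene counts appear divided by 1 factor per library. In every library 100% of the deposited values were whole multiples of 1 read, within 0.1 read, and the recovered reads summed to 3553505 to 7921533. TopHat2 2.1.1 and DESeq2 1.24.0 are named per the submitters' processing notes, with mm9 as the genome build. How reads were counted, over which annotation and with which strand setting is not stated there. No label states that the replicates are separate cultures, so p-values reflect no more than the spread among these samples, and that spread may be technical. The authors normalized the tables separately, and each was fitted alone.

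Genes at 10 or more in at least 3 (knockdown) or 4 (rescue) libraries were tested, 11586 and 11691 genes. The log2 of the deposited value plus 1 was fitted on group with limma 3.58.1 (limma-trend, 2-sided) under R 4.3.3, with all 12 rescue libraries in 1 model. Calls were made at an adjusted p under 0.05 (Benjamini-Hochberg, all genes tested), and each adjusted p printed is from limma. The limma fit was also run on simulated counts. These held neither a difference between replicate numbers nor near-identical libraries, so that run does not show how the fit handles them. Alternatives were other pseudocounts (0.5 and 5), filters (none, at least 50) and scalings (TMM, quantile), edgeR 4.0.16 and DESeq2 1.42.0 on the recovered reads, a replicate block, replicates 1 and 2 or 3 and 4 alone or as a term, averaging of near-identical libraries, and each library left out.

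Replicate numbers are shared by the groups, and deviations from group means were correlated to see whether they pair libraries. Same-numbered libraries of different groups correlated at 0.24 to 0.54 in the knockdown, over the minimum of 0.1 taken as pairing, and others at -0.47 to 0.33. These ranges overlap, so pairing by number is not settled there. Replicate 3 of both groups stood apart, with correlations of -0.47 to -0.22 to replicates 1 and 2 of the other group. Pairs of groups within replicates 1 and 2, and the pair of replicates 3, were at 0.10 to 0.54. In the rescue same-numbered libraries correlated at 0.55 to 0.81, but so did all libraries on the same side of the gap between replicates 1 and 2 and replicates 3 and 4 (0.55 to 0.83). A chi-square comparison of counts within each group gave 3 pairs at 0.721 to 0.859 per degree of freedom, against 1.06 or more for all others. In the knockdown, replicates 1 and 2 gave 1.25 for L3MBTL3 shRNA and 1.42 for scramble. Replicate 3 against these gave 2.31 and 2.68 for L3MBTL3 shRNA and 6.22 and 6.38 for scramble. Means and SDs take each such pair once, while the fits, their SEs and their p-values take its libraries separately unless averaging is named.

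Values in every library are printed for genes that passed the test, for the 2 largest and 2 smallest fold changes of each comparison and for the first gene of each role. Members, lists, markers and tests were chosen with earlier results of these data known. Promoters are RefSeq's, and exon lengths and overlaps come from an annotation of GRCm38.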

Additional observations from a re-analysis of the deposited data

How the results depend on the processing

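In the knockdown, the fitted log2 fold change was below 0 for 37 of 37 genes under each of the 17 alternatives run, with a median of -0.31 to -0.20. The number of genes that fell, 7, depended on the setting. It was 34 with the replicate block (8.71% of all genes tested fell, against 1.11%), 16 after quantile scaling (3.25%) and 3 with no filter, which tests more genes (0.439%). It was 27 without both replicates 3 (7.50%) and 35 there with the replicate block (12.7%), alternatives chosen after the data were seen. With 1 library left out it ranged from 0 to 15 (0.00% to 3.34% of all genes tested), and the median from -0.31 to -0.20. It was 7 to 9 with other pseudocounts, a filter at 50, TMM scaling, edgeR and DESeq2. In the rescue, leaving out 1 library gave 0 calls throughout, with medians of -0.09 to 0.01 (RBPJ WT over the empty vector), -0.10 to 0.01 (F261A/A284V over the empty vector) and -0.06 to 0.04 (F261A/A284V over RBPJ WT). Espl1 was the 1 gene called for F261A/A284V over RBPJ WT with the replicate block, with replicate side as a term and within replicates 3 and 4, and the 1 gene called for F261A/A284V over the empty vector within replicates 3 and 4; the cause was not tested. The replicate block changed no other call of the rescue. Averaging near-identical libraries has no value in the knockdown, which holds no such pair. Depths of 3553505 to 7921533 reads and 3 or fewer independent samples per group limit what could be detected.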
